A study of Mus musculus with 24 samples.

Results

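The lungs of C3H/HeJ mice after 48 h of ozone were compared with those of C3H/HeJ mice kept in air. Samples were chosen by their titles: 3 HeJ mice exposed to ozone for 48 h and 3 HeJ mice exposed to air, 6 of the 24 Affymetrix mouse arrays in the series. All 6 mice were male and carried the HeJ form of Tlr4, which the labels call dominant negative, so the air controls carried it too. HeJ lungs after 24 h of ozone (3 mice) and lungs of C3H/HeOuJ (OuJ) mice, which have a sufficient Tlr4, in air (3 mice) and after 48 h (3 mice) served for comparison. Each array held total RNA of the left lung lobe of 1 mouse. No source used here gives the ozone concentration, the age of the mice or the hour of day at which lungs were taken.

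Toll-like receptor 4 is the cell-surface sensor of bacterial lipopolysaccharide. It acts with the secreted carrier Lbp, the cofactors Cd14 and Ly96 and the adaptor Myd88 to activate NF-kB, which induces cytokine and acute phase genes. Ozone is an oxidant gas that reacts with lipids and antioxidants of the airway lining. Epithelial injury, an inflow of leukocytes, antioxidant enzyme induction and proliferative repair of the epithelium are its known effects in rodent lung. The series asked how the lung's transcripts respond to ozone when Tlr4 does not work.

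Values are array signals on a linear scale, in arbitrary units, for 1 probe set per gene. A change is the difference between group means of log2(signal + 16), given as estimate ± standard error with 3 mice per group. The added 16 makes changes of genes with signals near or below it smaller than the ratio of their signals. A gene rose or fell when its Benjamini-Hochberg adjusted p from limma, fitted to all 24 arrays and 8008 genes, was under 0.05. Signals of different genes are not comparable with each other.

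Across the transcriptome, 970 of 8008 genes passed in HeJ lungs at 48 h (12.1%): 454 rose (5.67%) and 516 fell (6.44%). Centring each array on its median moved the share of rises among called genes from 46.8% to 57.1%, and it shifted the median change of all genes from -0.03 to 0.01. The upper and lower quartiles of the change were 0.14 and -0.21, and 78 genes rose by more than 1 while 54 fell by more than 1. The 3 exposed arrays lay wholly above or wholly below the 3 air arrays for 2464 genes (30.8%), and for 944 of the 970 called. Correlations between arrays were 0.970 to 0.973 within air, 0.970 to 0.976 within 48 h and 0.944 to 0.953 between the groups. The 5'/3' signal ratio of Gapdh, a measure of RNA integrity, was 0.558 ± 0.0565 in air and 0.593 ± 0.0878 at 48 h (SD, n = 3 each; exact two-sided permutation p = 0.7, where 0.1 is the smallest possible). The sample codes place air and 48 h lungs in different code series, 3 and 13, whose meaning the labels do not give, so exposure and code series cannot be told apart. Lung markers were bright in all 6 arrays: Sftpc, the surfactant protein of alveolar type 2 cells, had signals of 38615, 38758 and 39702 in air and 35989.7, 31481 and 30365 at 48 h, and Scgb1a1, the club cell secretoglobin, 30058, 37184 and 35093 in air and 30289, 28779.9 and 29345 at 48 h.

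Tlr4 itself did not pass the test. Its signals were 244, 213 and 228 in air and 259.7, 228 and 183 at 48 h, a change of -0.04 ± 0.17 (adjusted p = 0.912), and the groups overlapped. This level does not check the strain label, because the HeJ allele differs in its coding sequence and not in whether a transcript is made.

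The 12 largest rises and 12 largest falls were taken only from called genes whose exposed lungs all lay beyond all air lungs. For these genes, here and below, a lack of overlap was therefore a condition of their choice. The 12 rises were led by Saa3, an acute phase protein of injured tissue, whose mean signal was 19.9 times that in air. Its signals were 166, 152 and 92.6 in air and 2609, 3153 and 2434 at 48 h (change 4.19 ± 0.30, adjusted p = 4.83e-09). Timp1, an inhibitor of matrix metalloproteinases, had 278, 224 and 221 in air and 2432, 1758 and 2196 at 48 h (3.06 ± 0.20, adjusted p = 1.48e-09). Each exposed lung was far above each air lung for both genes, and the exposed mice lay close together. Sprr1a, a cornified envelope precursor made by squamous and injured epithelium, went from 149, 147 and 179 to 1512, 1233 and 1412 (3.01 ± 0.27, adjusted p = 2.08e-07). Retnla, a resistin-like secreted protein of type 2 inflammation, had 2159, 1345 and 1722 in air and 8075, 9357 and 7409 at 48 h (2.26 ± 0.36, adjusted p = 0.000313). Neither overlapped between groups, and the exposed mice were alike for both. The other 8 of the 12 were Hspa1b, Cxcl5, Ccl20, Hspa1a, Tnc, Hsph1, Cxcl1 and Arntl, described with their groups.

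**Figure D1:**
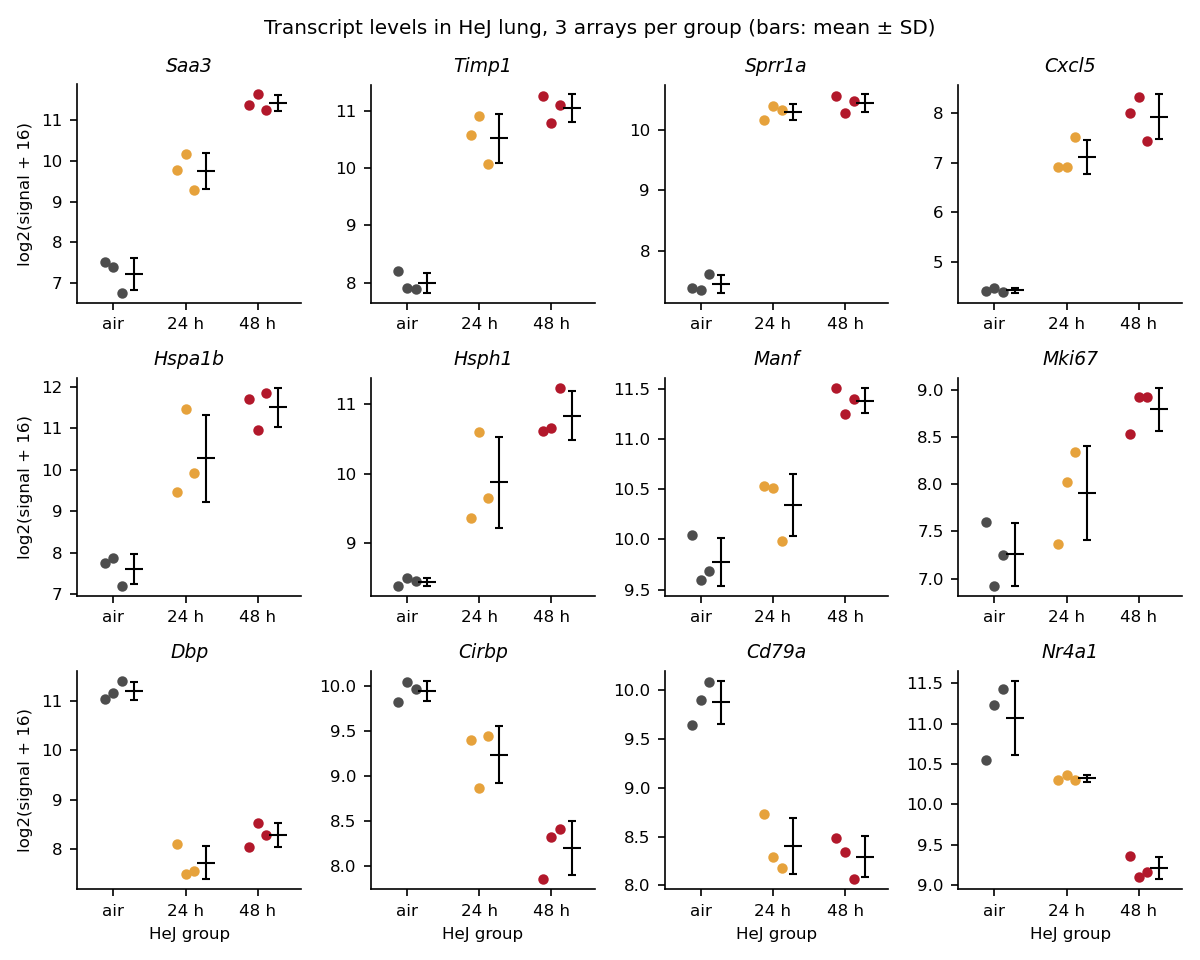
Signal, as log2(signal + 16), of 12 genes in HeJ lungs in air and after 24 h and 48 h of ozone; points are mice (3 per group), bars the mean ± SD, and the vertical axes do not start at 0. Saa3, Timp1, Sprr1a, Cxcl5, Hspa1b, Hsph1, Manf and Mki67 lay higher at 48 h than in air, and Dbp, Cirbp, Cd79a and Nr4a1 lower, with no overlap between these groups. For the genes among the largest rises or falls the lack of overlap was a condition of their choice. Cxcl5 would not have passed the filter on low signals without the HeJ 48 h arrays.

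Acute phase and secreted defence genes rose together. Of 25 listed genes, 23 were on the array and 11 were bright enough to be tested; all 11 rose, with a median change of 1.31 against -0.03 for all genes. The 14 not tested, among them Saa1, Saa2, Orm1 and Ptx3, were absent from the array or too dim. With no filter on low signals 10 genes rose and the list's median was 0.660. Lrg1, a leucine-rich glycoprotein of the acute phase, had 1565, 1479.6 and 1309 in air and 6388, 6443 and 5259 at 48 h (2.04 ± 0.28, adjusted p = 5.09e-05). Serpina3n, a serine protease inhibitor, had 473, 435 and 424 in air and 1840.3, 1289 and 1626 at 48 h (1.79 ± 0.21, adjusted p = 8.31e-06). Lcn2, which withholds iron from bacteria by binding siderophores, had 1233, 1198 and 752 in air and 3633, 4372 and 2958 at 48 h (1.78 ± 0.19, adjusted p = 4.87e-06). No air lung reached an exposed one for any of the 3. Cfb, a complement protease, changed by 1.59 ± 0.27, Pigr, the transporter of IgA across epithelium, by 1.31 ± 0.28, and Itih4, an acute phase protein, by 1.20 ± 0.13. Hp and Lbp were the smallest rises of the list, at 0.48 and 0.42.

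Among cytokines and chemokines, 6 of 18 tested genes rose and 1 fell (38 listed, 35 on the array), with a median change of 0.22. Cxcl5, a neutrophil-attracting chemokine of alveolar epithelium, was near the lower limit of the array in air at 5.5, 6.5 and 5.1 and reached 240.3, 303 and 156 at 48 h (3.48 ± 0.53, adjusted p = 0.000142). It would not have passed the filter on low signals without the HeJ 48 h arrays, so its difference was in part a condition for its being tested. Cxcl1, another neutrophil chemokine, had 88.4, 71.5 and 17.4 in air and 469.7, 275 and 279 at 48 h (2.36 ± 0.43, adjusted p = 0.000869). Ccl20, which attracts cells bearing Ccr6, had 26.9, 68.2 and 33.4 in air and 596, 480.1 and 370.1 at 48 h (3.12 ± 0.64, adjusted p = 0.00249). All exposed values of the 3 genes lay above all air values. Ccl17, a T cell chemokine, went from 173, 173 and 168 to 392, 449 and 466 (1.27 ± 0.18), and Il33, an alarmin held in alveolar type 2 nuclei, changed by 0.89 ± 0.19. Ccl6 also rose (0.85 ± 0.21), and Cx3cl1, the membrane-bound fractalkine, fell (-0.67 ± 0.12, adjusted p = 0.000608). Il1b changed by -0.26 and did not pass, and Il6, Tnf, Ccl2, Cxcl2 and Cxcl10 were too dim to be tested. With the filter set on the mean signal, 3 members rose in place of 6.

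The TLR4 and NF-kB list had 4 rises and 1 fall among 26 tested genes (36 listed, 29 on the array), and its median change was -0.03. Bcl3, an atypical IkB protein that binds nuclear NF-kB, had 175, 115 and 159.6 in air and 550.4, 480.1 and 478 at 48 h (1.66 ± 0.30, adjusted p = 0.00101). Myd88 had 813, 853 and 858 in air and 1239.9, 1389 and 1369 at 48 h (0.65 ± 0.12, adjusted p = 0.000902) and Cd14 1029.5, 940 and 963 in air and 1324, 1489 and 1197 at 48 h (0.44 ± 0.14, adjusted p = 0.0345). The exposed mice were above the air mice for all 3. Ly86, the partner of the TLR-like receptor Cd180 on B cells and myeloid cells, fell from 631, 492 and 638 to 423, 375 and 304 (-0.66 ± 0.16). Nfkbia and Tnfaip3, both NF-kB targets that restrain it, changed by -0.08 and -0.06 and did not pass, as did Rela at -0.24. The count of rises was 2 without any of HeJ 48 h replicates 1 or 2 or HeJ air replicates 2 or 3.

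Chaperones of the cytosol and mitochondria rose in 15 of 31 tested cases. Heat shock proteins keep other proteins folded and are induced by the factor Hsf1 through heat shock elements when unfolded protein accumulates. Of 34 listed genes 32 were on the array and 31 were tested; none fell, and the median change was 0.70. Without HeJ 48 h replicate 1 the count was 9. Hspa1b, an inducible Hsp70, had 199.9, 216 and 130.5 in air and 3302, 1972 and 3667 at 48 h (3.90 ± 0.62, adjusted p = 0.000251). Hspa1a, its near-identical copy, had 122, 94.8 and 148 in air and 1282, 618 and 1352 at 48 h (2.94 ± 0.63, adjusted p = 0.00352). Both genes were separated between groups by a wide margin, but because the copies share most of their sequence their separate values are uncertain. They were also followed up by the study's authors from these lungs and are not independent evidence of the list's direction. Hsph1, an Hsp110 that recycles Hsp70, went from 318, 345 and 336 to 1553, 1590.4 and 2397 (2.39 ± 0.39, adjusted p = 0.00039). Hsp90aa1, the inducible Hsp90, went from 3442, 3686 and 3353 to 7959, 7023 and 6760.1 (1.05 ± 0.16, adjusted p = 0.00021), and Hspa8, the constitutive Hsc70, from 6006, 7559.8 and 6622 to 14518, 13201 and 13694 (1.04 ± 0.15, adjusted p = 0.000109). Exposed and air lungs did not overlap for these either. The kept probe sets of Hspa8 gave changes of 0.24 to 1.18. The cochaperones Dnajb1, Dnaja1 and Chordc1 rose by 1.44, 1.29 and 1.23, and the mitochondrial pair Hspd1 and Hspe1 by 0.92 and 1.05. The small heat shock proteins Hspb1 (0.58), Hspb8 (0.21) and Cryab (-0.14) did not pass, nor did Bag3 (0.71).

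Promoter sequence of this list was searched for the element that Hsf1 binds, which few of its genes held in the strict form used. The 250 bases before the RefSeq start (build GRCm38.p6) were searched on both strands for a strict heat shock element, that is GAA, 2 bases of any kind, TTC, 2 bases of any kind and GAA, or the same with TTC and GAA exchanged. It was present in 3 of the 26 list genes with an entry (11.5%), against 0.514% of the 27025 mouse promoters in the table. These were Hspd1 and Hspe1, which share a divergent promoter, and Dnajb6, which did not pass; 2 of the 12 list genes that rose and had an entry held it. The Hspe1 promoter is shown because it also serves Hspd1: it lies at chr1:55087898-55088147 on the plus strand, and capitals mark the bases of 2 overlapping matches, which begin 89 and 84 bases before the start.
Hspe1: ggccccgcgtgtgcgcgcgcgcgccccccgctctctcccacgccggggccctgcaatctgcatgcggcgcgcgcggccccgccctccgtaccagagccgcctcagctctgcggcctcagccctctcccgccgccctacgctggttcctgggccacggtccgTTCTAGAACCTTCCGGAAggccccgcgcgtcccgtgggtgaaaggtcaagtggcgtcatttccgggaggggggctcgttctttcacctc
The same letters lie on the minus strand in the window of Hspd1. A match describes these letters and shows no binding, and Hspa1a, Hspa1b and Hsph1 had no match in this window.

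Chaperones of the endoplasmic reticulum rose as well, as 13 of 31 genes of the unfolded protein response list, all on the array and tested, with 1 fall and a median change of 0.36. This pathway senses misfolded protein in the secretory route and raises folding enzymes through Atf6, Xbp1 and Atf4. Manf, a secreted protein of the stressed endoplasmic reticulum, had 1042, 757 and 809 in air and 2888, 2416 and 2682 at 48 h (1.61 ± 0.18, adjusted p = 5.94e-06). Hspa5, the luminal Hsp70 also called BiP, had 4651, 5897 and 5017 in air and 11649, 9376 and 11435 at 48 h (1.06 ± 0.13, adjusted p = 1.64e-05). Creld2, a disulphide isomerase-like protein, had 479, 446 and 477 in air and 820.5, 1087 and 1154 at 48 h (1.09 ± 0.18, adjusted p = 0.000453). For all 3 the lowest exposed lung was above the highest air lung. Pdia6, a disulphide isomerase, rose from 1111, 1066 and 967 to 1862, 1832 and 1804 (0.80 ± 0.13, adjusted p = 0.00027). Sdf2l1, Hsp90b1, Dnajb9, Calr, Hyou1 and Xbp1 rose by between 0.58 and 0.81. In the stress-kinase arm, Ppp1r15a, the phosphatase subunit that ends the block on translation, fell (-0.47 ± 0.11, adjusted p = 0.00659), and Atf4 (0.36), Ddit3 (0.06), Chac1 (-0.39) and Trib3 (-0.52) did not pass.

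The endoplasmic reticulum stress element, CCAAT and CCACG with 9 bases of any kind between them, searched in the same windows on both strands, was present in 9 of 27 list genes with an entry (33.3%), against 0.13% of all promoters. Of the 11 that rose and had an entry 6 held it (Calr, Creld2, Dnajc3, Hsp90b1, Hspa5 and Pdia6), and 3 that did not pass held it too (Canx, Derl3 and Syvn1). The promoters of Hspa5 (chr2:34771840-34772089, plus strand), Creld2 (chr15:88819396-88819645, plus strand) and Hsp90b1 (chr10:86705445-86705694, minus strand) are shown, as the luminal Hsp70, the second largest rise of the list and the luminal Hsp90, with capitals on the matches.
Hspa5: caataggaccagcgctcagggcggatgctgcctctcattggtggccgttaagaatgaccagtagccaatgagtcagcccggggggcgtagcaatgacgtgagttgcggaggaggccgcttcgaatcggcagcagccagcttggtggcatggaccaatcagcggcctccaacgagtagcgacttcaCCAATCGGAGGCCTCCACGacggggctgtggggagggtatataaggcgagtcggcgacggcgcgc
Creld2: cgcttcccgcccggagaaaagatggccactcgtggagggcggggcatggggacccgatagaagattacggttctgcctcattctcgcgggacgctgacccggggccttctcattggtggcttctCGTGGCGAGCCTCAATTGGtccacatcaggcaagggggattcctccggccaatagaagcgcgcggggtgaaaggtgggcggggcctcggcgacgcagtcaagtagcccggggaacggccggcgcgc
Hsp90b1: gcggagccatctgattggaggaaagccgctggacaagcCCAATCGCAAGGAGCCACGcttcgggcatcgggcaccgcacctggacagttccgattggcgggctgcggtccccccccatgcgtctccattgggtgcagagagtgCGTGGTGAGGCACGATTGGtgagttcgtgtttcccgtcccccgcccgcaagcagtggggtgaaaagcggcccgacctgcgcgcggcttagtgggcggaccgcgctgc
The match in Hspa5 begins 65 bases before the start, that in Creld2 126 bases before, and the 2 in Hsp90b1 212 and 107 bases before. A match is a description of the letters and shows neither a site in use nor a cause of the rise.

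Antioxidant genes of the Nrf2 pathway rose in 12 of 30 tested cases (35 listed, 31 on the array) and none fell, with a median change of 0.28. Nrf2, encoded by Nfe2l2, is released from Keap1 by oxidants and raises glutathione and detoxification enzymes. Gclc, the catalytic subunit of the rate-limiting enzyme of glutathione synthesis, had 763, 722 and 907 in air and 2424, 2080.1 and 2924 at 48 h (1.61 ± 0.22, adjusted p = 4.61e-05). Aldh3a1, an aldehyde dehydrogenase of exposed epithelia, had 262, 256 and 275 in air and 543, 642 and 556 at 48 h (1.09 ± 0.13, adjusted p = 8.45e-06). Txnrd1, thioredoxin reductase, had 1235, 1170.3 and 1106 in air and 1961, 2355 and 1843 at 48 h (0.80 ± 0.11, adjusted p = 6.25e-05). The groups were apart for each. Nfe2l2 rose by 0.77 ± 0.13, and Osgin1, Gsta3, Gpx2, Srxn1 and Gclm by between 0.58 and 0.86. Nqo1 (0.10), Hmox1 (0.90), Gsr (0.24) and the catalase gene Cat (-0.25) did not pass. Without HeJ air replicate 1 the count of rises was 7. Of the metallothionein, zinc and iron list, 2 of 15 tested genes rose (18 listed, 17 on the array): Mt2, a metal-binding thiol protein (1337, 1665 and 1827 in air and 5167, 3809.9 and 4636 at 48 h; 1.49 ± 0.21), and the transferrin receptor Tfrc (0.63 ± 0.19). Of these 1 rose without any 1 exposed array or without HeJ air replicates 2 or 3.

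Proteasome subunits had small changes, nearly all positive. All 32 listed subunits were tested, 31 of them had a positive change, and 8 rose, with a median of 0.24. Psmb5, which carries the chymotrypsin-like activity, had 1873, 1568 and 1793 in air and 2597, 2521 and 2523 at 48 h (0.55 ± 0.12, adjusted p = 0.00395), and Psmd7, a lid subunit, changed by 0.49 ± 0.14. The count moved with single arrays: 1 to 5 subunits rose when any of HeJ 48 h replicates 1, 2 and 3 or HeJ air replicates 2 and 3 was left out, and 2 in a fit of only these 6 arrays. The immunoproteasome subunits Psmb8 and Psmb9, interferon-induced replacements listed elsewhere, fell (-0.40 ± 0.13 and -0.75 ± 0.23).

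Genes of cell division rose. Of 35 mitosis and spindle genes 33 were on the array and 18 bright enough to be tested; 10 rose and none fell, with a median change of 0.79. Mki67, the Ki-67 antigen of cycling cells, had 177, 106 and 136 in air and 352, 469 and 471 at 48 h (1.53 ± 0.27, adjusted p = 0.000697). Birc5, the survivin subunit of the chromosomal passenger complex, had 81.3, 83.2 and 93.3 in air and 399, 320.2 and 361 at 48 h (1.88 ± 0.36, adjusted p = 0.00155). Cks1b, a partner of cyclin-dependent kinases, had 577, 498 and 480 in air and 957, 1059.6 and 1171 at 48 h (1.01 ± 0.16, adjusted p = 0.00019). The 3 exposed mice were above the 3 air mice in each case. Top2a, Kif22, Ccnb2, Prc1, Cks2, Ube2c and Cdc20 rose by between 0.62 and 1.10, while Cdk1, with signals of 145, 14.5 and 86.3 in air and 162, 341 and 263 at 48 h, changed by 1.71 ± 0.64 and did not pass (adjusted p = 0.084). The count depended on the settings: 17 rose with no filter on low signals, 4 with a filter on the mean, and 6 without HeJ air replicate 2. Aurka would not have passed the filter without the HeJ 48 h arrays and was not called.

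In DNA replication and nucleotide synthesis 6 of 17 tested genes rose and none fell (35 listed, 33 on the array; median 0.37). Rrm2, the small subunit of ribonucleotide reductase, had 207, 188 and 240.2 in air and 516, 627 and 664 at 48 h (1.44 ± 0.18, adjusted p = 1.4e-05), with no overlap. Pcna, the sliding clamp of DNA polymerase, rose by 0.49 ± 0.10, the helicase subunits Mcm2, Mcm3 and Mcm7 by 0.83, 0.54 and 0.39, and DNA ligase 1 (Lig1) by 0.47. The count was 2 or 3 without HeJ 48 h replicates 2 or 3 or without HeJ air replicate 2.

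Promoters of mitotic genes often hold a CCAAT box together with a cell cycle homology region, here searched as CCAAT and TTTGAA on both strands in 250 bases before the start. CCAAT was in 12 of the 15 mitosis genes with an entry (80%; 37.5% of all promoters), TTTGAA in 10 (66.7%; 18.3% of all), and both in 9 (60%; 6.45% of all). Of the 10 that rose and had an entry, 8 held both: Ccnb2, Cdc20, Cks1b, Kif22, Mki67, Prc1, Top2a and Ube2c. Mki67 (chr7:135716380-135716629, minus strand), Cks1b (chr3:89418292-89418541, minus strand) and Cdc20 (chr4:118437344-118437593, minus strand) are shown as an antigen, a kinase partner and an activator of the anaphase complex, with capitals on every match of either motif.
Mki67: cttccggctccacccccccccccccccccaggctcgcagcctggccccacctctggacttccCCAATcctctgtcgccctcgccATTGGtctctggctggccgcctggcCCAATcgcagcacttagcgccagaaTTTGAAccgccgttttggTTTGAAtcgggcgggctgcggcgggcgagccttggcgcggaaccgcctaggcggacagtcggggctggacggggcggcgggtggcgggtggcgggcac
Cks1b: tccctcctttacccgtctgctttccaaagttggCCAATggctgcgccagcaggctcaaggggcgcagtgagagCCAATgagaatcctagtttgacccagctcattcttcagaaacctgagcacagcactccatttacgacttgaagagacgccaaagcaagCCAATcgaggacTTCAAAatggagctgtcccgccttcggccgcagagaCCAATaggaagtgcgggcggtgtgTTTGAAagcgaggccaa
Cdc20: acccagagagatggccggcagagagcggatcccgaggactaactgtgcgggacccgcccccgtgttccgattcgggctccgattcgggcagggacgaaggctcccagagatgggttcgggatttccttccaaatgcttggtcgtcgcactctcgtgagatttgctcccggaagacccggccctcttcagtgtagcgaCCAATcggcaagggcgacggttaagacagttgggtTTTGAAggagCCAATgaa
Matches number 5 in Mki67, 6 in Cks1b and 3 in Cdc20. The motifs are short and common, and their presence is a description only.

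Genes of epithelial repair rose in 7 of 19 tested cases with no fall (23 listed, 21 on the array; median 0.37). Krt8 and Krt18, the paired keratins of simple epithelium, had 2830.1, 2578 and 3303 in air and 6916, 6763 and 8584 at 48 h (1.35 ± 0.11, adjusted p = 4.16e-08) and a change of 1.01 ± 0.14 respectively. F3, tissue factor, which starts coagulation, had 306, 256 and 178 in air and 663, 732 and 758 at 48 h (1.51 ± 0.28, adjusted p = 0.000932). Lgals3, galectin-3 of epithelium and macrophages, had 4412, 4312 and 4337 in air and 7099.6, 7646 and 7239 at 48 h (0.75 ± 0.09, adjusted p = 9.54e-06). These genes did not overlap between groups. Krt19 and Anxa1 rose by 0.50 and 0.48. The EGF receptor and its ligands did not pass: Egfr changed by -0.33, Hbegf by -0.10, Tgfa by -0.11 and Btc by 0.20.

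Matrix remodelling genes rose more often than they fell, and few collagen chains passed. Of 19 tested genes of matrix remodelling (28 listed, 24 on the array), 7 rose and 2 fell, with a median of 0.21. Tnc, tenascin C of provisional matrix, had 258, 150.5 and 15.9 in air and 772, 707 and 607 at 48 h (2.64 ± 0.49, adjusted p = 0.00107). Eln, elastin, had 1187, 1872 and 1273 in air and 5572, 3692 and 4979 at 48 h (1.71 ± 0.23, adjusted p = 4.21e-05). Thbs1, a matricellular activator of latent TGF-beta, had 614, 540 and 511 in air and 2203, 2146 and 1304 at 48 h (1.70 ± 0.23, adjusted p = 4.97e-05). All exposed lungs exceeded all air lungs for the 3, although Tnc varied widely among the air mice. Adamts4, a proteoglycan-cleaving protease, passed narrowly (1.83 ± 0.60, adjusted p = 0.0495), and Mmp3 and Plaur rose by 0.81 and 0.39. Mmp2 and Timp2, the gelatinase of stromal cells and an inhibitor of it, fell (-0.49 ± 0.13 and -0.34 ± 0.11). Without HeJ 48 h replicate 1 the number of rises was 4. Collagen chains had 1 rise (Col5a2, 0.50) and 2 falls (the basement membrane chains Col4a3, -0.56, and Col4a5, -0.42) among 16. Of all genes 5.67% rose and 6.44% fell. The share of collagen chains with an unadjusted p under 0.05 by limma's test was 25%, against 25.1% of all genes. The fibrillar chains Col1a1 (0.23), Col1a2 (0.05) and Col3a1 (0.47) did not pass. The falls among collagens were 1 or 0 without HeJ 48 h replicates 2 or 3 or any 1 air replicate.

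Cholesterol synthesis rose in part: 6 of 16 tested genes rose and none fell (22 listed, 17 on the array; median 0.43). Cyp51, the sterol demethylase, had 121, 135 and 153 in air and 381, 368 and 367 at 48 h (1.35 ± 0.20, adjusted p = 0.000126). Idi1, which makes dimethylallyl diphosphate, had 571, 612 and 578 in air and 1241, 1068 and 1150.3 at 48 h (0.95 ± 0.19, adjusted p = 0.0021). Both were apart from air. Msmo1, Fdft1, Sqle and Fdps, further enzymes of the route, rose by 0.92, 0.75, 0.73 and 0.68. The regulator Srebf2 (-0.14) and Hmgcs1 (0.43) did not pass. In the list of lipid droplet and fasting-type PPAR genes 1 of 12 tested rose (Plin2, the coat of lipid droplets, 0.48 ± 0.10) and 3 fell (20 listed, 17 on the array): the heart-type fatty acid binding protein Fabp3 (-1.03 ± 0.22), Cpt1a, the gate of mitochondrial fatty acid import (-0.51 ± 0.16), and the fatty acid translocase Cd36 (-0.48 ± 0.14). These falls came to 1 without HeJ 48 h replicates 1 or 2 or HeJ air replicates 1 or 3. The kept probe sets of Cd36 gave changes of -0.48 to -0.12.

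**Figure D2:**
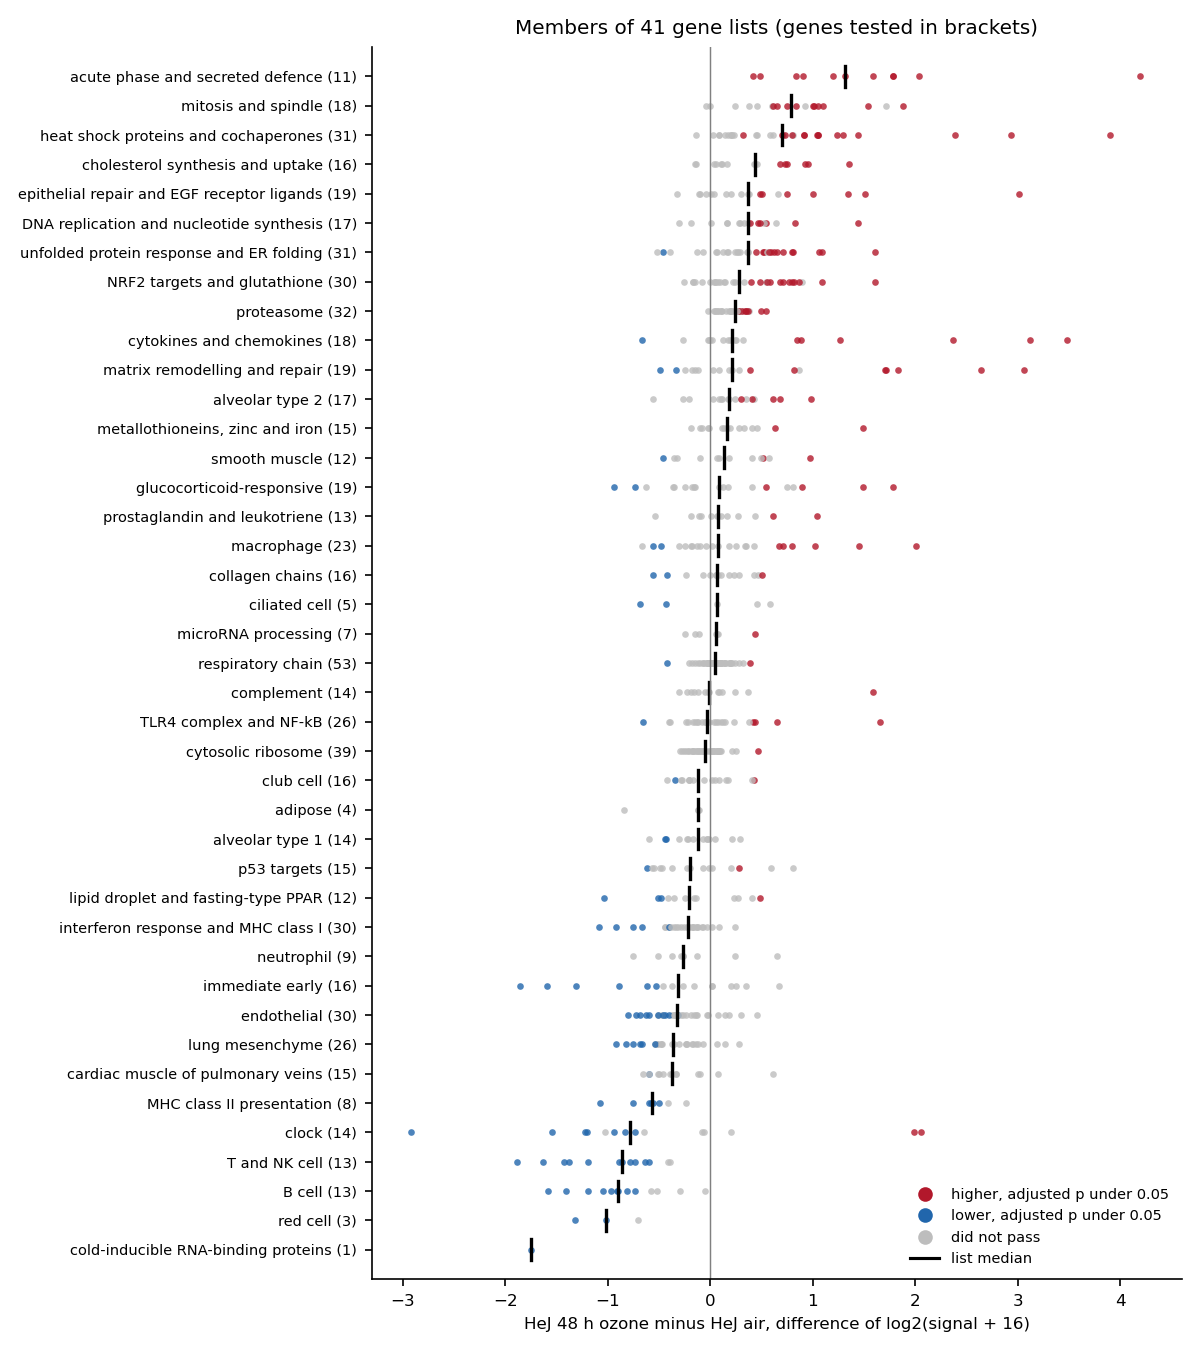
Change at 48 h of ozone against air in HeJ lungs, as a difference of log2(signal + 16), for the tested members of 41 gene lists; each point is a gene, red where it rose, blue where it fell and grey where it did not pass, and the black tick is the list's median. Acute phase genes have a median of 1.31 (0.660 with no filter on low signals) and red cell genes one of -1.02 (-0.702 with no filter).

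Lymphocyte markers fell. In this bulk tissue, fewer cells of a type and less RNA per cell cannot be told apart. Of 13 tested B cell markers 9 fell and none rose (21 listed, 17 on the array; median -0.90), and of 13 tested T and NK cell markers 11 fell and none rose (32 listed, 26 on the array; median -0.86). The summed signal of the 17 B cell markers on the array was 6369.8 to 7691 in air and 3265 to 3903 at 48 h. That of the 26 T and NK markers on the array was 6102 to 6690.3 in air and 3086 to 3779 at 48 h. Neither sum overlapped. Cd79a, a signalling chain of the B cell receptor, had 785, 937 and 1069 in air and 342, 308 and 251 at 48 h (-1.58 ± 0.23, adjusted p = 9.86e-05). Cd79b, its partner, had 928, 805 and 1019 in air and 384, 412 and 375 at 48 h (-1.19 ± 0.25, adjusted p = 0.00311), and Cd22, an inhibitory receptor of B cells, changed by -0.91 ± 0.16. Ighv14-2, an immunoglobulin variable segment, had 425, 322 and 393 in air and 77.8, 114 and 92.2 at 48 h (-1.84 ± 0.35, adjusted p = 0.00159). The exposed mice were below the air mice for all 4. Cd3d, a chain of the T cell receptor complex, went from 417, 426 and 282 to 58.8, 124 and 91.8 (-1.89 ± 0.55, adjusted p = 0.0259; 0.0605 to 0.105 without HeJ 48 h replicates 1 or 3 or HeJ air replicates 1 or 2). Klrd1, CD94 of NK cells, had 212, 216 and 234 in air and 16.9, 123.2 and 80.3 at 48 h (-1.63 ± 0.34, adjusted p = 0.00304), and Ms4a4b and Nkg7, markers of effector T and NK cells, changed by -1.42 and -1.19. Itgb7, an integrin chain of homing lymphocytes, had 268, 325 and 333 in air and 102, 168 and 42.7 at 48 h (-1.58 ± 0.32, adjusted p = 0.00232). There was again no overlap. The defining markers Cd4 and Cd8a were too dim to be tested. Leaving out 1 array left 5 B cell falls (HeJ air replicate 3) and 6 T and NK falls (HeJ 48 h replicate 3), and a filter on the mean left 6 of the latter.

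MHC class II genes, made by B cells, dendritic cells and macrophages, fell in 6 of 8 tested cases (11 listed, 9 on the array; median -0.57). Cd74, the invariant chain, had 16910.5, 16750.4 and 16555 in air and 10988, 12099.7 and 11062 at 48 h (-0.56 ± 0.13, adjusted p = 0.0059), and H2-Oa, a chaperone subunit of B cells, had 494, 479 and 496 in air and 244, 206 and 221 at 48 h (-1.08 ± 0.16, adjusted p = 0.000142). No exposed lung reached an air lung for either. H2-Eb1 and H2-DMb2 fell too, with changes of -0.50 and -0.75, and the class II transactivator Ciita changed by -0.24 without passing. The falls numbered 2 or 3 without HeJ 48 h replicates 1 or 3 or HeJ air replicates 1 or 2. The B cell sum given above moved with this list, and its part in the result was not tested. Interferon and MHC class I genes fell in 5 of 30 tested cases with no rise (41 listed, 33 on the array; median -0.22): Tap1 (-0.67), Psmb8 (-0.40), Psmb9 (-0.75), Ifit2 (-0.91) and Rsad2 (-1.08). They numbered 2 or 3 without HeJ 48 h replicate 2 or HeJ air replicates 1 or 3.

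Myeloid markers moved in both directions or did not pass. Among neutrophil chemokines Cxcl1 rose, and Cxcl5 rose too but would not have passed the filter on low signals without the HeJ 48 h arrays. Neutrophil markers had no call among 9 tested genes (21 listed, 18 on the array), with a median of -0.27. At an unadjusted p under 0.05 by limma's test 1 of these 9 markers was higher and 3 were lower, against 25.1% of all genes in either direction. S100a8 and S100a9, the abundant calcium-binding proteins of neutrophils, had changes of -0.37 ± 0.32 and -0.75 ± 0.30 and did not pass (adjusted p = 0.505 and 0.106). Mpo, Elane and Camp, made in neutrophil granules, were too dim to be tested. Clec4d (0.65) would not have passed the filter without the HeJ 48 h arrays. It is the 1 member called as a rise under quantile normalization, median centring, array weights or no intensity trend.

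Of 23 tested macrophage genes 6 rose and 2 fell (33 listed, 30 on the array; median 0.08). Marco, a scavenger receptor of alveolar macrophages, had 193, 234 and 124 in air and 660.5, 1257 and 534 at 48 h (2.00 ± 0.42, adjusted p = 0.00324). It too was followed up by the study's authors from these lungs. Ctsk, the protease cathepsin K, had 486, 629 and 570.3 in air and 1393, 2454 and 1099 at 48 h (1.45 ± 0.21, adjusted p = 7.41e-05), and Clec4n, dectin-2, rose by 1.02 ± 0.16. The exposed lungs were above the air lungs for these. Chil3, Plet1 and Gpnmb rose by 0.80, 0.71 and 0.67. Csf1r, the receptor for the macrophage growth factor, fell (-0.56 ± 0.11, adjusted p = 0.00208), as did Cd36, and the pan-macrophage genes Cd68 (0.35), Adgre1 (-0.18) and Mrc1 (0.01) did not pass. The summed signal of the 30 macrophage genes on the array was 61310.5 to 65262 in air and 64316 to 78322 at 48 h, which overlapped. The mean log2 level of the 23 tested genes, a different set, was higher in every exposed lung than in every air lung.

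**Figure D3:**
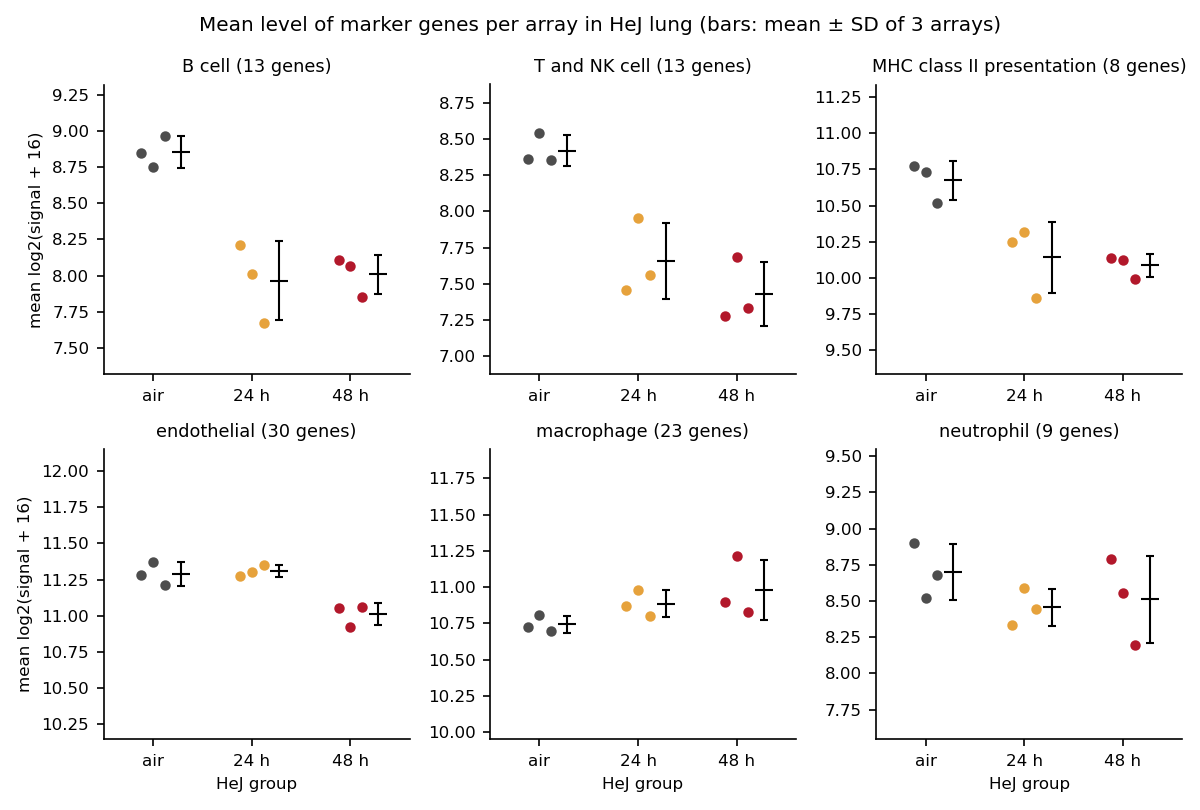
Mean of log2(signal + 16) over the tested markers of 6 cell type lists in each HeJ lung in air and after 24 h and 48 h of ozone; points are mice, 3 per group, and each panel spans 2 log2 units. B cell, T and NK cell and MHC class II means lay lower at 24 h and 48 h than in air, endothelial means lay lower at 48 h, neutrophil means overlapped between air and 48 h, and macrophage means lay slightly higher at 48 h.

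Some vascular and stromal markers fell, while few smooth muscle genes passed. Among endothelial genes 10 of 30 tested fell and none rose (32 listed, 30 on the array; median -0.33), with summed signals of 103206 to 114786 in air and 83077 to 91565 at 48 h. Cdh5, VE-cadherin of endothelial junctions, had 5642, 6588 and 5119 in air and 4376, 4075 and 4217 at 48 h (-0.45 ± 0.11, adjusted p = 0.0088), and Emcn, a sialomucin of capillaries and veins, had 769, 986 and 775 in air and 518, 521 and 468 at 48 h (-0.72 ± 0.13, adjusted p = 0.000631). The exposed lungs lay below the air lungs for both. The receptors Kdr, Tek, Tie1 and Aplnr fell, with changes of -0.59, -0.63, -0.69 and -0.80. The count was 5 without HeJ 48 h replicate 2 or without HeJ air replicate 2, and 6 with arrays centred on their median. Mesenchymal genes fell in 6 of 26 tested cases with no rise (all 28 listed on the array; median -0.36). Clec3b, tetranectin, had 959.7, 1203 and 1260.4 in air and 502, 552 and 749.6 at 48 h (-0.92 ± 0.18, adjusted p = 0.00179), and Mfap4, a microfibril protein, had 5898, 6731 and 6881 in air and 3369.7, 4410.2 and 3322 at 48 h (-0.82 ± 0.16, adjusted p = 0.00208), again without overlap. Ogn, a small proteoglycan, and the lung transcription factors Tbx2 and Tbx4 fell, with changes of -0.69, -0.66 and -0.75. Meis1, a homeobox factor, changed by -0.48 ± 0.21 and did not pass (adjusted p = 0.142). In smooth muscle 2 of 12 tested genes rose (Acta2, 0.98 ± 0.15, and Actg2, 0.51 ± 0.17), against 5.67% of all genes. A single fall among the 12 (Smtn, -0.46 ± 0.11) is near the 6.44% of all genes that fell. All 14 listed genes were on the array, and the median was 0.13. In this list 1 gene rose without HeJ 48 h replicates 2 or 3 or HeJ air replicates 1 or 3.

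Some red cell genes fell, while the share of heart muscle genes called as falls was near that of all genes. The atrial muscle that sheathes the pulmonary veins of mice had 1 fall among 15 tested genes, against 6.44% of all genes (Myh7, -0.60 ± 0.12), and a median of -0.37. The exposed lungs lay wholly below the air lungs for 8 of the 15, against 1369 of 8008 genes. By limma's unadjusted p under 0.05, 3 were lower and 1 higher, against 25.1% of all genes in either direction. The summed signal of the 16 listed genes, all on the array, was 15505 to 17018 in air and 11875 to 14496 at 48 h. Pgam2, the muscle phosphoglycerate mutase and one of the 12 largest falls, had 136, 122 and 202 in air and 19.3, 45.5 and 31.8 at 48 h (-1.82 ± 0.54, adjusted p = 0.0298). Pgam2 did not pass without HeJ 48 h replicates 1 or 3 or any 1 air replicate (adjusted p of 0.0546 to 0.112), and the red cell gene Slc4a1 did not pass without HeJ 48 h replicate 2 or HeJ air replicates 1 or 3 (0.0574 to 0.0909). Of 3 tested red cell genes 2 fell (10 listed, 5 on the array). Slc4a1, the band 3 anion exchanger, had 309, 264 and 347 in air and 124, 86.5 and 133 at 48 h (-1.32 ± 0.37), and Alas2, which starts haem synthesis in erythroid cells, had 6241, 4140.5 and 4693 in air and 2669, 2178 and 2499 at 48 h (-1.02 ± 0.22). The exposed lungs were below the air lungs for both. The summed signal of the 5 red cell genes on the array was 5139 to 7448 in air and 2796 to 3500.3 at 48 h. Of the tested genes 1 rather than 2 fell without HeJ 48 h replicate 2 or HeJ air replicates 1 or 3. The part of blood and vein content in the other falls was not tested. The uncharacterised gene 1810021B22Rik, another of the largest falls, had 251, 278 and 193 in air and 32.4, 62 and 119 at 48 h (-1.67 ± 0.42, adjusted p = 0.0105), with a wide spread among exposed mice, and did not pass without HeJ 48 h replicate 1 (0.0704).

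Clock genes made up several of the largest changes. The circadian clock is a feedback loop in which Arntl and Clock drive the Per, Cry and Nr1d repressors and the output factors Dbp, Tef and Hlf, so each gene's level depends on the hour of day. Of 14 tested genes 2 rose and 7 fell (19 listed, 17 on the array; median -0.78). Dbp had the largest fall of the genes tested, with 2078, 2286 and 2695 in air and 248, 354 and 295 at 48 h (-2.92 ± 0.40, adjusted p = 5.56e-05). Per3, a period protein, had 1118, 939 and 1029 in air and 306, 371 and 355 at 48 h (-1.54 ± 0.20, adjusted p = 3.05e-05), and Cry2, a cryptochrome, had 506, 618 and 447 in air and 248, 183 and 216 at 48 h (-1.22 ± 0.18, adjusted p = 0.000103). The 3 fell in every exposed mouse relative to every air mouse. Arntl, which peaks when Dbp is low, had 124, 16.9 and 93.9 in air and 313, 325 and 312 at 48 h (2.06 ± 0.49, adjusted p = 0.00793), and Nfil3, a repressor that opposes Dbp at its sites, rose by 1.98 ± 0.52. Nr1d2, Tef, Hlf and Per1 fell, with changes of -1.20, -0.94, -0.83 and -0.73, and Clock (0.21), Per2 (-0.64) and Nr1d1 (-1.03) did not pass. The labels do not give the hour of collection, so for these genes the hour, the exposure and the code series cannot be told apart.

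Cirbp, an RNA-binding protein that rises when cells cool, fell from 894, 1042 and 988 to 215, 304 and 325 (-1.75 ± 0.19, adjusted p = 5.18e-06). The exposed values were all well under the air values. Its listed partner Rbm3 was not among the tested genes.

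Immediate early genes, the first transcripts induced by growth factors and stress, fell in 6 of 16 tested cases with no rise (all 20 listed on the array; median -0.32). Nr4a1, an orphan nuclear receptor, had 1479.9, 2391 and 2729.7 in air and 643, 535 and 557 at 48 h (-1.86 ± 0.25, adjusted p = 4.35e-05). Fos, an AP-1 subunit, had 2326, 3733 and 3202 in air and 924, 1123 and 944 at 48 h (-1.59 ± 0.27, adjusted p = 0.000551), and Egr1, a zinc finger factor, had 2224, 4332 and 3594 in air and 1359, 1095 and 1483 at 48 h (-1.31 ± 0.27, adjusted p = 0.00246). None of the 3 overlapped. Ier2, Btg2 and Klf2 fell, with changes of -0.89, -0.62 and -0.53, and Jun (-0.16), Junb (-0.46), Atf3 (0.25) and Myc (0.67) did not pass. Glucocorticoid-responsive genes had 4 rises and 2 falls among 19 tested (20 listed, all on the array; median 0.08). The rises were Lcn2, Mt2, Cebpd (0.89) and Cebpb (0.55), the first pair also listed above, and the falls Per1 and the phosphatase Dusp1 (-0.94 ± 0.25). The rises numbered 2 without HeJ 48 h replicates 2 or 3 or HeJ air replicates 1 or 2.

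The remaining lists are given by their counts, beside the 5.67% of all genes that rose and the 6.44% that fell. A single call among 14 to 16 tested genes is near these shares, and 1 among 39 or 53 is below them. Alveolar type 2 genes had 5 rises among 17 tested and a median of 0.18, led by the endocytic receptor Lrp2 (0.98 ± 0.21), Chil1 (0.68) and the lipid synthesis genes Scd1 (0.61) and Fasn (0.41), with Sftpd at 0.30; the count was 2 or 3 without any 1 of the exposed arrays or HeJ air replicates 1 or 3. Sftpc changed by -0.26 ± 0.11 and did not pass. Alveolar type 1 genes had 2 falls among 14 (Cav1, -0.43, and Spock2, -0.44), ciliated cell genes 2 among 5 (Tppp3, -0.68, and Lrrc23, -0.43), and club cell genes 1 rise (Aldh1a7, 0.43) and 1 fall (Cbr2, -0.35) among 16. Complement genes had 1 rise among 14 (Cfb), p53 targets 1 rise (Aen, 0.28) and 1 fall (Btg2) among 15, prostaglandin and leukotriene genes 2 rises among 13 (Ptgs2, 1.04, and Ptgr1, 0.61), and microRNA processing genes 1 rise among 7 (Xpo5, 0.44). The cytosolic ribosome had 1 rise among 39 (Rps2, 0.47; median -0.05) and the respiratory chain 1 rise (Cox5a, 0.38) and 1 fall (Ndufa6, -0.42) among 53 (median 0.05). No adipose gene passed limma's test of the 4 tested, and 1 was lower at an unadjusted p under 0.05, a share no larger than the 25.1% of all genes. These small counts moved with single arrays. The falls of the alveolar type 1 and ciliated cell lists numbered 1 or 0, and the rise among p53 targets 0, without any 1 of the 6 arrays. The rise was lost without HeJ 48 h replicate 2 or HeJ air replicate 1 (club cell), HeJ 48 h replicate 1 or HeJ air replicate 3 (microRNA processing) and HeJ 48 h replicate 1 or HeJ air replicate 1 (ribosome), and both rises of the prostaglandin list without HeJ 48 h replicate 2. The respiratory chain had 0 rises without HeJ 48 h replicates 2 or 3 or HeJ air replicates 1 or 2 and 2 without HeJ air replicate 3, and complement had 2 without HeJ air replicate 1.

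The 48 h lungs were then compared with the 3 HeJ lungs at 24 h of ozone, a contrast that uses no air array and lies within code series 13. At 48 h 210 genes were higher than at 24 h (2.62%) and 228 lower (2.85%), 438 in all (5.47%). This count moved with single arrays: it ran from 104, without HeJ 24 h replicate 1 or replicate 3, to 647 without replicate 2, and was 274, 141 and 171 without 48 h replicates 1, 2 and 3. The codes of 24 h replicates 1 and 3 carry a suffix, and without all arrays of suffixed codes 1 gene passed. The Gapdh 5'/3' ratio at 24 h was 0.753 ± 0.174 (SD, n = 3).

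Genes of secretory protein folding were among those higher at 48 h than at 24 h. Of 31 unfolded protein response genes 7 were higher and 1 lower. Pdia6 had 1109, 1169.9 and 906 at 24 h and 1862, 1832 and 1804 at 48 h (0.79 ± 0.13, adjusted p = 0.00205). Manf had 1470, 1445 and 998 at 24 h and 2888, 2416 and 2682 at 48 h (1.04 ± 0.18, adjusted p = 0.00353). Ckap4, a protein of endoplasmic reticulum sheets, had 1284, 1381 and 1415 at 24 h and 2357, 2460.4 and 2992 at 48 h (0.92 ± 0.14, adjusted p = 0.00118). The 48 h lungs were above the 24 h lungs for all 3. Rrm2 had 196, 321 and 267 at 24 h and 516, 627 and 664 at 48 h (1.17 ± 0.18, adjusted p = 0.00124), and Pclaf, a Pcna-binding protein of replicating cells, had 284, 422 and 231 at 24 h and 699.7, 730 and 673 at 48 h (1.17 ± 0.20, adjusted p = 0.00332). Neither overlapped between the times. Of the mitosis list 3 of 18 were higher (Cks1b, Prc1 and Ube2c), of the replication list 3 of 17, and of the cholesterol list 4 of 16 (Cyp51, Idi1, Msmo1 and Fdft1). Acot7, an acyl-CoA thioesterase, had the smallest p (1225, 1240.3 and 1048 at 24 h and 1907, 2004 and 1998 at 48 h; 0.75 ± 0.10, adjusted p = 0.00071). Krt8 and the gap junction gene Gja1 were also higher (0.75 ± 0.11 and 1.01 ± 0.18). Saa3 went from 853, 1136 and 612 to 2609, 3153 and 2434 (1.67 ± 0.30, adjusted p = 0.00353).

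Glucocorticoid-responsive genes were lower at 48 h than at 24 h in 8 of 19 cases, with none higher and a median of -0.74. Zbtb16, a zinc finger repressor, had 142, 108 and 185 in air, 685, 413 and 857 at 24 h and 146, 182 and 160.3 at 48 h (-1.85 ± 0.47 between the times, adjusted p = 0.0234). Pdk4, which blocks pyruvate oxidation in fasting, had 165, 185 and 136 in air, 593, 357 and 512 at 24 h and 108, 173 and 98.5 at 48 h (-1.83 ± 0.35, adjusted p = 0.00384). Tsc22d3, the glucocorticoid-induced leucine zipper, had 1202, 2585 and 1889 in air, 3967, 3389 and 3026 at 24 h and 1249, 1718 and 1631 at 48 h (-1.17 ± 0.28, adjusted p = 0.0178). For these genes the 24 h lungs stood above the 48 h lungs, and none differed between 48 h and air at the threshold. Hilpda, a lipid droplet protein, had 3082, 3156 and 3626 at 24 h and 1318, 1146 and 1419.7 at 48 h (-1.34 ± 0.20, adjusted p = 0.0013), and 3 of 12 lipid droplet and PPAR genes were lower, among them Lpl (-1.33 ± 0.25). Lox, the collagen and elastin cross-linking enzyme, had 6617, 4142 and 7086 at 24 h and 2287, 1261 and 1614 at 48 h (-1.78 ± 0.42, adjusted p = 0.0187). Endothelial genes were lower in 7 of 30 cases, among them Pecam1 (-0.57 ± 0.10), and Ogn by -0.75 ± 0.12. The other lower genes with the smallest p were Tmcc3, Sh2d3c, Plpp1, Prkch, Map1lc3b and Elmo1, with changes of -0.81, -0.95, -0.99, -1.33, -0.56 and -0.92. B cell, T and NK cell, MHC class II and neutrophil markers had no gene that passed limma's test between 24 h and 48 h. At an unadjusted p under 0.05 these were 1 of 13, 2 of 13, 0 of 8 and 2 of 9, against 20.8% of all genes, and the medians of the last 3 lists were -0.19, -0.04 and 0.03.

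The 24 h and 48 h groups were each also set against the same 3 air lungs, so these values share their controls and are given side by side only. At 24 h 569 genes passed against air (7.11%), 252 higher (3.15%) and 317 lower (3.96%). Acute phase genes rose in 7 of 11 cases at 24 h with a median of 0.71, against 11 and 1.31 at 48 h. Heat shock genes rose in 3 of 31 with a median of 0.25, against 15 and 0.70. No mitosis gene rose at 24 h by limma's adjusted p (median 0.29; 3 higher and 1 lower of 18 at an unadjusted p under 0.05, against 21.8% of all genes), against 10 at 48 h. B cell genes fell in 8 of 13 at 24 h and 9 at 48 h. Dbp changed by -3.48 at 24 h and -2.92 at 48 h, Arntl by 2.42 and 2.06, and Per3 by -1.45 and -1.54.

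**Figure D4:**
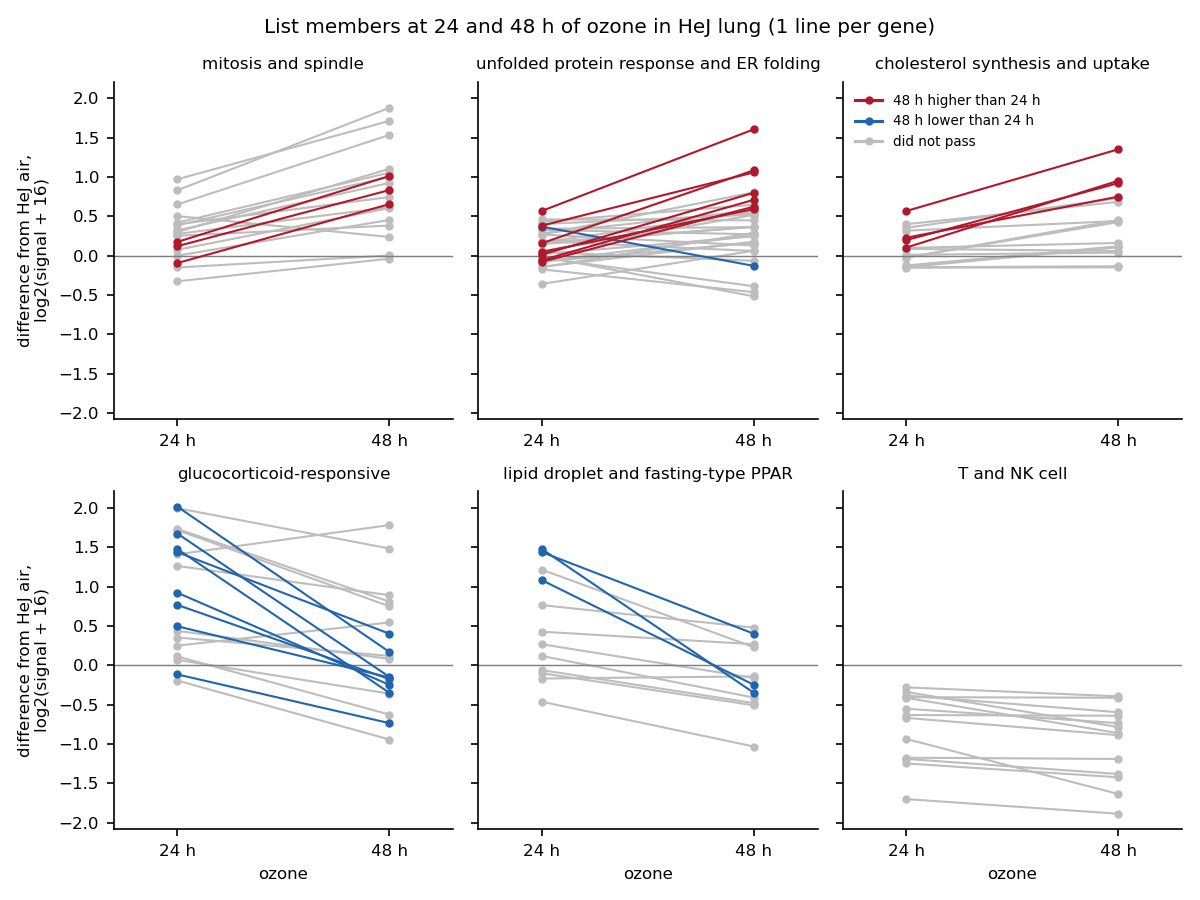
Change from HeJ air at 24 h and 48 h of ozone, as a difference of log2(signal + 16), for the tested genes of 6 lists; each line is a gene and is coloured where the direct comparison of 48 h with 24 h passed. Both points of a line share the same 3 air lungs, and 8 of the 19 glucocorticoid-responsive genes are coloured as lower at 48 h than at 24 h.

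OuJ lungs at 48 h, against their own air lungs, share no array with the HeJ comparison. There 633 genes passed (7.90%), 296 higher (3.70%) and 337 lower (4.21%). Called in both strains in the same direction were 168 rises and 153 falls, which made 33.1% of the HeJ calls and 50.7% of the OuJ calls, and 2 genes were called in opposite directions, Adssl1 and Coq4. The direct test of whether the change differed between strains passed for 0 of 8008 genes (0%) with limma. Of these 658 had an unadjusted p under 0.05, and the smallest adjusted p was 0.16. A fit of only the 4 groups compared called 11, array weights 10, and leaving out 1 array between 0 and 2. No gene below is therefore shown to differ between the strains by the test across all genes, and neither is it shown to respond alike.

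Heat shock genes had a larger median change in OuJ. Of 31 genes 22 rose in OuJ with a median of 1.37, against 15 and 0.70 in HeJ, and the median of the HeJ minus OuJ difference was -0.48. Of the 31 differences 12 were negative and 0 positive at an unadjusted p under 0.05 by limma's test (8.22% of all genes in either direction). None passed the adjusted test. Hsph1 went in OuJ from 345, 316 and 417 to 5472, 4749 and 7835 (change 3.98 ± 0.39), against 2.39 ± 0.39 in HeJ, a difference of -1.60 ± 0.56 (adjusted p = 0.384, and 0.0213 in the fit of only the 4 groups). Every exposed OuJ lung was above every exposed HeJ lung. Hspa1b went in OuJ from 276, 227 and 1821 to 10773, 10389 and 11661, where 1 air lung was far above the other 2, and the difference of the changes was -0.53 ± 0.87 (adjusted p = 0.933). Hspa1a differed by -1.26 ± 0.89 (adjusted p = 0.771). The unfolded protein response list had 11 rises in OuJ and 13 in HeJ, with medians of 0.35 and 0.36.

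Most clock genes had a lower change in HeJ than in OuJ. In OuJ 3 of 14 rose and 1 fell with a median of -0.02, against 2, 7 and -0.78 in HeJ, and 9 of the 14 differences were negative and 1 positive at an unadjusted p under 0.05 (8.22% of all genes in either direction), without passing the adjusted test. The positive one was Arntl, which had 124, 16.9 and 93.9 in HeJ air and 313, 325 and 312 at 48 h, and 100.3, 78.2 and 89.5 in OuJ air and 166, 61.9 and 90.2 at 48 h, a difference of 1.93 ± 0.70 (adjusted p = 0.416). Per2 had 309, 258 and 354 in HeJ air and 179, 143 and 263 at 48 h, and 205, 298 and 654 in OuJ air and 682, 825 and 1076 at 48 h, a difference of changes of -1.90 ± 0.41 (adjusted p = 0.16). Tef differed by -0.76 ± 0.17 (adjusted p = 0.16). Per2 passed with array weights (adjusted p = 0.0493) and without OuJ air replicate 3 (0.00394), and Tef with array weights (0.0385) and in the fit of only the 4 groups (0.0306). The OuJ 48 h lungs belong to code series 10 and the HeJ ones to 13, so strain and code series cannot be told apart here.

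Other genes of the strain test are given with their values. Dll1, a Notch ligand, differed by -0.89 ± 0.18 (adjusted p = 0.16; 0.0385 with array weights and 0.0461 without HeJ air replicate 3). Meis1 fell in OuJ (-1.66 ± 0.21) and changed by -0.48 ± 0.21 in HeJ (difference 1.17 ± 0.29, adjusted p = 0.202; 0.0231 without OuJ 48 h replicate 2). Marco changed by 1.34 ± 0.42 in OuJ (adjusted p = 0.0525), Timp1 by 2.19 ± 0.20, Saa3 by 2.69 ± 0.30 and Mki67 by 1.58 ± 0.27, and their differences from HeJ had adjusted p of 0.831, 0.362, 0.289 and 0.987. Lymphocyte markers fell in both strains: B cell genes in 8 of 13 cases in OuJ (median -0.76) and T and NK cell genes in 3 of 13 (median -0.58). Cholesterol genes had no call in OuJ (median 0.09) and proteasome genes none (median 0.05), against 6 and 8 rises in HeJ, with 0 differences that passed. At an unadjusted p under 0.05 by limma's test 3 cholesterol genes were higher and 1 lower in OuJ, and 1 proteasome gene was higher, against 21.4% of all genes.

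**Figure D5:**
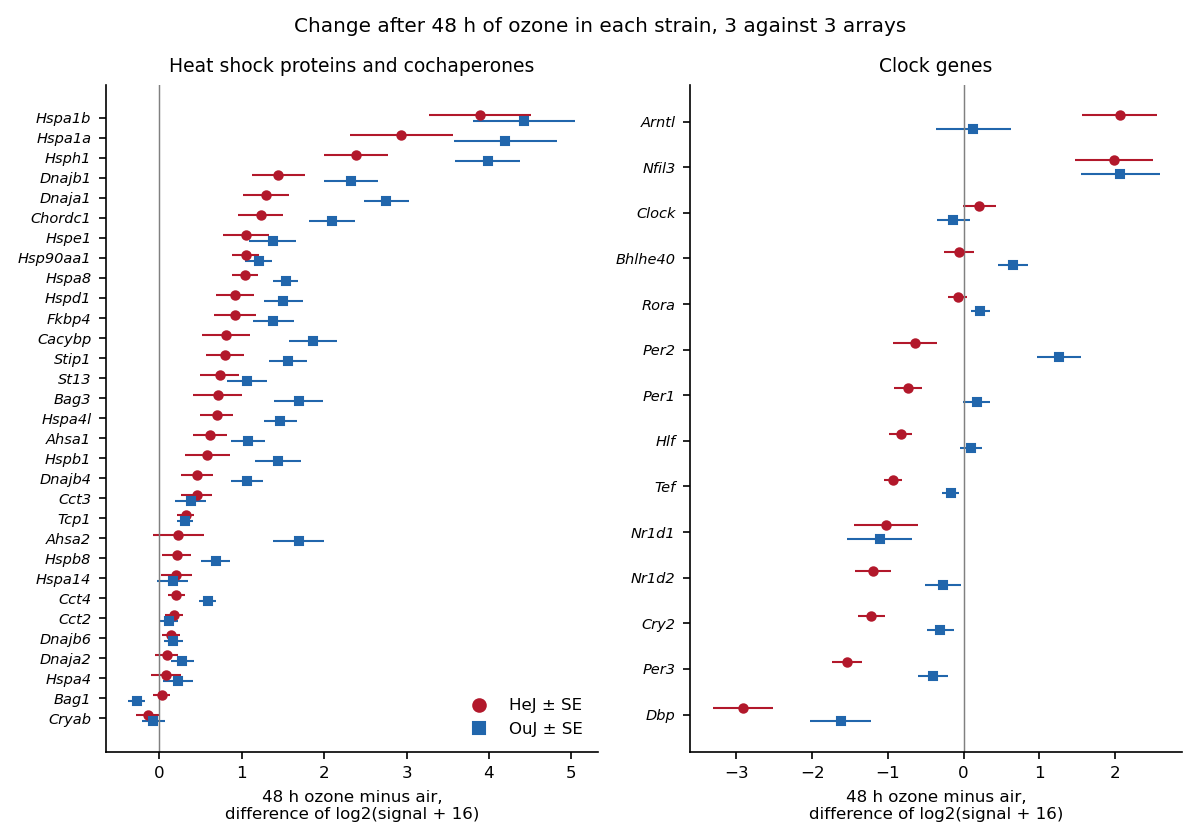
Change at 48 h of ozone against each strain's own air lungs, as a difference of log2(signal + 16) ± standard error, for 31 heat shock genes and 14 clock genes in HeJ (circles) and OuJ (squares). Hsph1, Dnaja1 and Ahsa2 lie higher in OuJ and Per2, Tef and Per3 lie lower in HeJ, and 0 of these differences passed the test across all genes.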

How the data were processed

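Probe-set signals are linear intensities that the authors computed with GCOS 1.4, per the submitters' processing notes, which state no settings. The 24 arrays have a common mean of 500.144 to 500.166 after 2% of each tail is trimmed. The deposited intensities were turned into log2(signal + 16). A probe set was kept if at least 3 arrays exceeded the overall median, 218.3, and the brightest kept one of each gene was tested, for 8008 genes. Names come from GEO's platform annotation.

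The model, in limma 3.58.1 under R 4.3.3, had 1 mean for each of 8 groups and used all 24 arrays (intensity trend, Benjamini-Hochberg adjustment over all genes, threshold 0.05), an approach tested on simulated data. The 3 mice per group limit the precision. Standard errors and p-values rest on a spread between mice that is pooled over all 8 groups, not only over the groups compared. Promoters are RefSeq entries of GRCm38.p6, found for 567 of the 727 tested list members.

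The comparison and its 41 lists were chosen with earlier results of these data known. Genes named are the 12 largest non-overlapping rises and falls, up to 4 called members per list with the smallest p, up to 8 per direction for the other contrasts, or 3 where none passed, and Tlr4, Hspa1a, Hspa1b, Hsph1, Marco, Saa3, Timp1, Mki67 and Meis1; other members show how a list varies. Alternatives covered scaling, pseudocount, filter, probe-set choice, model and single arrays. Lists were recomputed under each of them, a step added after seeing the data.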

Additional observations from a re-analysis of the deposited data

Results flagged for a closer look

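Among the 153 named genes, 3 had every HeJ lung at 48 h above the HeJ air lungs and every OuJ lung at 48 h below the OuJ air lungs. All 3 were named because they had the smallest p for a positive difference in the test between strains. Their opposite directions are therefore no separate support for that difference, and such genes were not counted among all genes tested. The difference between the strains did not pass the limma test across all genes in any of the 3 (adjusted p = 0.16 each), and no cause was tested. With array weights it passed in Acot9 and Coq4 (adjusted p = 0.0385 each) and Adssl1 (0.0493), and without HeJ air replicate 3 in Coq4 (0.0461). Coq4, of coenzyme Q synthesis, had signals of 80.6, 73.5 and 145 in HeJ air and 148, 238 and 259.4 at 48 h, and 172, 146 and 304 in OuJ air and 114, 79 and 74.3 at 48 h, a difference of changes of 2.06. Its HeJ groups were nearly adjoining, and it would not have passed the filter on low signals without the HeJ 48 h arrays. The OuJ air signal of 304 was also above the filter's cutoff of 218.3. Adssl1, the muscle adenylosuccinate synthase, had 145, 242 and 146 in HeJ air and 286, 254 and 284 at 48 h, and 240.1, 199.7 and 232 in OuJ air and 166, 104 and 124 at 48 h, a difference of 1.34. Acot9, a mitochondrial acyl-CoA thioesterase, had 845, 889.5 and 978 in HeJ air and 1184, 1199 and 1114 at 48 h, and 1203, 1024 and 1066 in OuJ air and 899, 900 and 855 at 48 h, a difference of 0.67.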

How the results depend on the processing

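For HeJ 48 h ozone against HeJ air the count of 970 genes kept within 1.5 times under every planned change of scaling, pseudocount, filter, probe-set choice and model, from 810 in a fit of only the groups compared to 1219 with all kept probe sets. Leaving out 1 array gave 609 to 694 genes, 284 to 346 higher (the lowest without HeJ 48 h replicate 2) and 316 to 362 lower. Without the arrays of suffixed codes 342 were lower. Of 153 named genes 142 passed, and 88 of these passed in every alternative.

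For HeJ 48 h against HeJ 24 h ozone the count of 438 genes moved further. They numbered 707 (393 lower) with all kept probe sets and 200 (84 higher, 116 lower) in a fit of only the groups compared, and 148 were lower with median centring. Leaving out 1 array gave 104 to 647, with 42 to 335 higher and 56 to 312 lower. Without the arrays of suffixed codes, where the lone 24 h array is assumed to vary like the other groups, 1 passed (0 higher, 1 lower). The test between strains called 11 genes (0 higher, 11 lower) in a fit of only the groups compared, 10 (3 higher, 7 lower) with array weights and 0 to 2 without 1 array (0 to 1 higher, 0 to 2 lower): Dll1 and Coq4 without HeJ air replicate 3, Meis1 without OuJ 48 h replicate 2, and Nr4a1 and Per2 without OuJ air replicate 3. The cause of these shifts was not tested.

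Medians or changes near 0 turned sign. The ribosome median was 0.0256 under quantile normalization. The TLR4 and NF-kB median was 0.0554 with the mean of probe sets and ran from -0.0286 to 0.052 without 1 array, the club cell median from -0.13 to 0.0101, the microRNA processing median from -0.108 to 0.0652 and the change of Tlr4 from -0.15 to 0.0861. Tlr4 was at 0.0024 under quantile normalization. The ciliated cell median ran from -0.0985 to 0.285 without 1 array and the complement median from -0.0701 to 0.063. The glucocorticoid median was -0.0313 with no filter and -0.0603 with all kept probe sets, and other changes of scaling, filter or probe sets also turned the complement and TLR4 medians.

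The labels number the replicates but do not say whether the numbers pair the mice, and the model left them unpaired. Same-numbered HeJ air and 48 h samples deviated from their group means with correlations of 0.159, 0.0685 and 0.201. Of these 48 h samples 3 of 3 correlated best with their own number. For HeJ 48 h and 24 h it was 2 of 3, and for OuJ 48 h and air 1 of 3. A replicate block gave 986 genes (458 higher, 528 lower) at 48 h against air, 476 against 24 h and 0 between strains. Genes with signals near the added 16, such as Cxcl5, Arntl and Nfil3, are measured with the least precision, and genes under the filter were not tested.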
